A study of Homo sapiens with 3 samples.

Results

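The insulin-like growth factor (IGF) system was examined in osimertinib-resistant lung cancer cells through 10 genes, of 43316 genes named on the arrays. They are the ligand gene IGF2, the receptor genes IGF1R and INSR, the adaptor genes IRS1 and IRS2, and the binding protein genes IGFBP2, IGFBP3, IGFBP4, IGFBP6 and IGFBP7. Members were taken by symbol, with every probe that is not a control and carries one of these names, which gave 14 probes of 58200. The scanner software called 9 of the 10 genes well above background in every line, and IGF2 in H1975 and OR2.

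The study compared H1975 with OR1 and OR2. H1975 (NCI-H1975) is a line of non-small cell lung cancer cells that carries both a sensitizing mutation and the gatekeeper resistance mutation in EGFR, and it is sensitive to osimertinib, an inhibitor made for this mutant EGFR. OR1 and OR2 were derived from separate flasks of H1975 under osimertinib doses raised in steps to 2 μmol/L within 4 months, so that all 3 lines share the H1975 genome as their origin. The lines were cultured in RPMI medium with fetal bovine serum, and RNA of each line was hybridized to 1 single-colour Agilent array on the same slide, without a replicate culture.

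IGF1 and IGF2 are secreted peptides that bind the receptor tyrosine kinase IGF1R, and IGF2 and insulin also bind the insulin receptor, INSR. The activated receptors phosphorylate the adaptors IRS1 and IRS2, which recruit PI3K and so activate AKT. The IGF binding proteins are secreted carriers that hold IGFs away from their receptors or release them close to cells, depending on the binding protein and on the proteases that cut it. IGF1R is known in lung cancer as one of the receptors that can keep AKT active when EGFR is inhibited.

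Intensities below are background-subtracted values of the scanner software, and a level is an intensity as a percent of its array's 75th percentile, which lay at an intensity of 157 for H1975, 138 for OR1 and 162 for OR2. A ratio is the level in OR1 or OR2 over that in H1975. Since each line has 1 array, a ratio has no replicate check and no p-value. Its only error is the technical SD on the log2 scale, propagated from the error estimate of the scanner software, with a median of 0.21 over all probes well above background. A gene was called up-regulated at a ratio of at least 2 and down-regulated at a ratio of at most 0.5, following the methods of the study. When a probe was not well above background on one side, its ratio bounds the difference and carries the words "at least" or "at most". That side was then set to the lowest intensity called well above background on its array, 12.6 for H1975, 11.4 for OR1 and 12.6 for OR2, or to the probe's own intensity where this was higher. OR1 and OR2 are both compared with the same H1975 array, so their ratios are not independent. Scaling on spike-in control probes in place of the percentile shifts every log2 ratio of OR1 by -0.60, and its effect is given beside the members.

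In both OR1 and OR2 as compared to H1975, IGFBP2 and IRS1 were lower and IGFBP4 was higher. IGFBP2 differed most, at a level 36.6-fold lower in OR1 and 52.1-fold lower in OR2. IGFBP3 and IGFBP7 were up-regulated in OR1 and not in OR2. The receptor genes IGF1R and INSR and the adaptor gene IRS2 did not reach either ratio in either line.

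Of the 10 genes, 2 were down-regulated in both lines (IRS1 and IGFBP2), against 6.32% of 22417 genes measured on at least 1 array. The gene up-regulated in both lines was IGFBP4 alone, 1 of 10 against 5.09%. In OR1, 3 genes were up-regulated (IGFBP3, IGFBP4 and IGFBP7) against a background of 9.17%, and 3 were down-regulated (IRS1, IGF2 and IGFBP2) against 9.58%. In OR2, 1 gene was up-regulated (IGFBP4) against 7.72%, and 2 were down-regulated (IRS1 and IGFBP2) against 8.7%. With 10 genes, these counts are a description and say nothing particular about the set. The median ratio of the 9 genes measured on all 3 arrays was 0.975 for OR1 and 0.899 for OR2, beside 1.02 and 0.964 over all 18589 such genes.

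**Figure D1:**
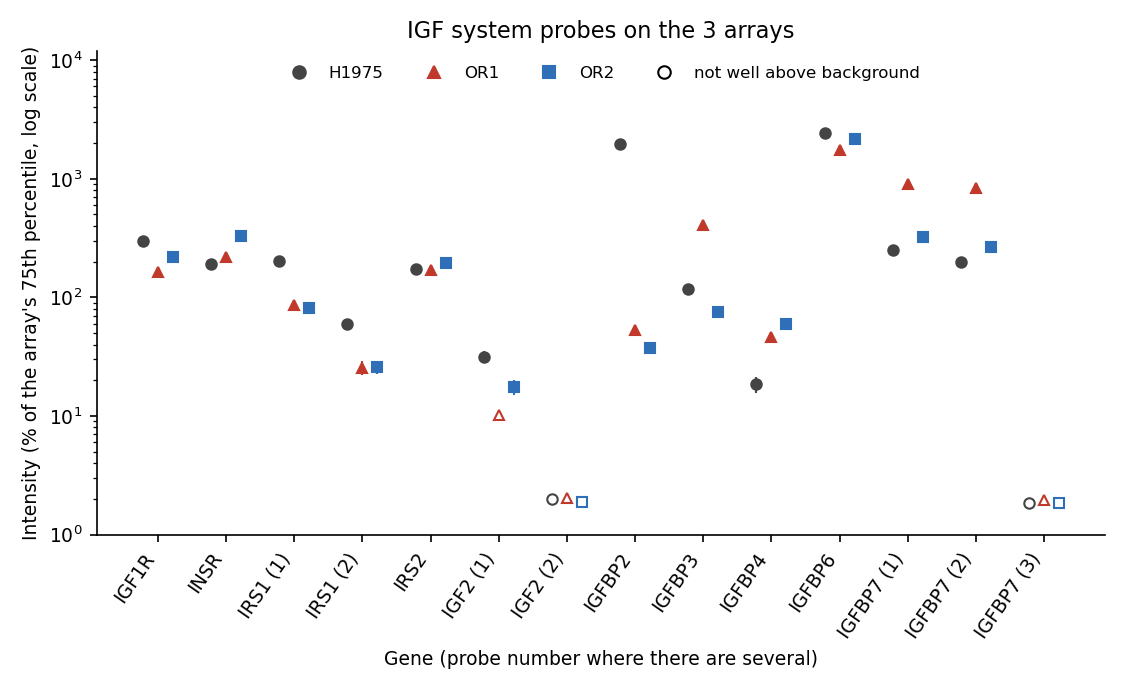
Level of each of the 14 probes on the arrays of H1975 (circles), OR1 (triangles) and OR2 (squares), as a percent of the array's 75th percentile on a log scale, where bars are the scanner software's error estimate and open symbols are not well above background. IGFBP2 goes from 1950% for H1975 to 53.3% for OR1 and 37.4% for OR2, while IGFBP3 and IGFBP7 probes 1 and 2 are highest in OR1.

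IGF2, the fetal growth factor that signals through IGF1R and INSR, was near background, and 1 of its 2 probes was not called on any array. The other probe (NM_000612, chromosome 11 from 2150394 to 2150453, hg19 as for all probes below) had an intensity of 49.5 for H1975, 14.0 for OR1 and 28.3 for OR2, and the OR1 value was not well above background. With its own OR1 intensity, the higher of both, the ratio was at most 0.323 for OR1 and 0.557 for OR2, the latter with a log2 technical SD of 0.27. Thus H1975 was highest, and OR2 was at least 1.72 times OR1. The second IGF2 probe covers 353 bases of the genome with its 60 bases, from 2154402 to 2154754, and was at 3.12, 2.83 and 3.05 on the 3 arrays, not well above background on any of them. IGF2 therefore rests on 1 probe near background, and under the normexp model of background correction the ratio in OR1 was 0.761, which is not a call. Normexp was run here and below with an offset of 50 added to every intensity. Such an offset brings the ratios of dim probes toward 1 by construction.

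IGF1R, the receptor tyrosine kinase for both IGFs, was measured by 1 probe (NM_000875, chromosome 15 from 99507366 to 99507425). Its intensity was 468 for H1975, 228 for OR1 and 353 for OR2. The ratio was 0.554 for OR1 and 0.734 for OR2, each with a log2 technical SD of 0.20, both lower than H1975 by more than 2 technical SDs. Among the 18589 genes, 10.4% had a lower ratio than IGF1R in OR1 and 24.5% did in OR2. OR1 and OR2 themselves differed by less than 2 technical SDs, at a ratio of OR2 over OR1 of 1.32. IGF1R passed 0.5 in the OR1 line, at 0.486 without scaling and 0.365 with scaling on spike-in controls, and in OR2 it passed under no alternative.

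INSR, the insulin receptor, which also pairs with IGF1R into hybrid receptors, had an intensity of 300 for H1975, 304 for OR1 and 529 for OR2 on its probe (NM_000208, chromosome 19 from 7112351 to 7112410). After scaling the ratio was 1.16 for OR1, within 2 technical SDs of no difference, and 1.72 for OR2, beyond 2 technical SDs and under the ratio for up-regulated genes. OR2 was thus the highest line, 1.49 times OR1. With spike-in scaling the OR1 ratio was on the other side of 1, at 0.761.

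The other receptor for IGF2 is IGF2R, which carries IGF2 to lysosomes and does not signal through AKT. It is no member of the set and is given for its role. Its probe had an intensity of 660 for H1975, 560 for OR1 and 826 for OR2, ratios of 0.968 and 1.22. With spike-in scaling the OR1 ratio was 0.637.

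IRS1, the adaptor that couples IGF1R and INSR to PI3K, was lower in both lines on 2 separate probes. The first 30 bases of each are shown, since the agreement of these probes is what the IRS1 result rests on.
IRS1 probe 1, NM_005544, chromosome 2 from 227600148 to 227600207: tttttcctgtaagacaataggccatgttaa
IRS1 probe 2, NM_005544, chromosome 2 from 227596618 to 227596677: cttggcatttaaatctctctttgcttatgc
The brighter probe 1 had an intensity of 319 for H1975, 118 for OR1 and 132 for OR2. Probe 2 had 93.7, 35.3 and 41.9. On both probes H1975 stood above OR1 and OR2, which lay close together.
The IRS1 ratio was 0.423 for OR1 and 0.402 for OR2 on probe 1 (log2 technical SD 0.21), and 0.429 and 0.436 on probe 2 (technical SD 0.25 and 0.24). OR2 over OR1 was 0.951 on probe 1 and 1.01 on probe 2, within 2 technical SDs on both. With normexp, the brighter probe gave 0.527 for OR1, which ends the call there, and 0.499 for OR2. Probe 2 then gave 0.720 for OR1 and 0.676 for OR2, a call in neither line. With spike-in scaling probe 1 gave 0.279 for OR1 and probe 2 gave 0.283.

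IRS2, the adaptor with the overlapping role, did not follow IRS1. Its probe (NM_003749, chromosome 13 from 110406645 to 110406704) had an intensity of 273 for H1975, 234 for OR1 and 316 for OR2. The ratios of 0.975 for OR1 and 1.13 for OR2 lay within 2 technical SDs of 1, and so did the ratio of OR2 over OR1 of 1.15. With spike-in scaling the OR1 ratio was 0.642 and OR2 over OR1 was 1.84, both beyond 2 technical SDs.

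IGFBP2, a binding protein with high affinity for IGF2, had the largest difference of the members, and its probe is shown as the source of that value (first 30 bases of 60).
IGFBP2, NM_000597, chromosome 2 from 217529086 to 217529145: ggagggggaagagaaatttttatttttgaa
The intensity was 3070 for H1975, 73.6 for OR1 and 60.5 for OR2, well above background on all 3 arrays. The probe is spotted 10 times on each array. In H1975 the spots lay between 2997 and 3177 (median 3047), in OR1 between 64.1 and 78.9 (median 74.5) and in OR2 between 55.8 and 72.8 (median 59.5). No spot of OR1 or OR2 came near those of H1975. The spots of OR1 and OR2 overlapped as intensities and not as levels, at 46.4% to 57.1% for OR1 and 34.5% to 45.0% for OR2. The SD between spots within an array was 0.03, 0.08 and 0.11 on the log2 scale. The technical SD of the ratios, 0.21 and 0.22, combines the software's error estimates of both arrays and is not directly comparable. Spots on 1 array share 1 RNA sample and are no replicates of the culture.

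The ratio of IGFBP2 was 0.0273 for OR1 and 0.0192 for OR2. Of the 18589 genes measured on all arrays, 16 had a lower ratio in OR1 and 3 had one in OR2. Across the alternatives the level was 21.1- to 55.6-fold lower in OR1 and 26.4- to 52.8-fold lower in OR2, with the smallest difference under normexp in both lines. OR2 over OR1 was 0.701, beyond 2 technical SDs, and turned to 1.12 with spike-in scaling.

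IGFBP3, the main carrier of IGFs in blood, was up-regulated in OR1 and below H1975 in OR2. Its probe, shown for the opposite values in the 2 lines, targets a transcript with RefSeq accession NM_001013398.
IGFBP3, chromosome 7 from 45952608 to 45952667: agcctccacattcagaggcatcacaagtaa
The intensity was 186 for H1975, 561 for OR1 and 123 for OR2. The 10 spots lay between 165 and 203 for H1975, between 504 and 598 for OR1, and reached at most 131 for OR2 (median 126), so that the spots of the 3 arrays did not overlap.
The ratio was 3.45 for OR1 and 0.643 for OR2 (log2 technical SD 0.21), each beyond 2 technical SDs. OR2 over OR1 was 0.186, a level 5.36-fold lower in OR2. IGFBP3 and IGFBP7 were the 2 members past the ratio between the resistant lines, both lower in OR2, where 2.89% of 21451 genes were, and none was higher, where 2.48% were. With spike-in scaling, the OR1 ratio of IGFBP3 was 2.27 and that of OR2 over OR1 was 0.298.

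**Figure D2:**
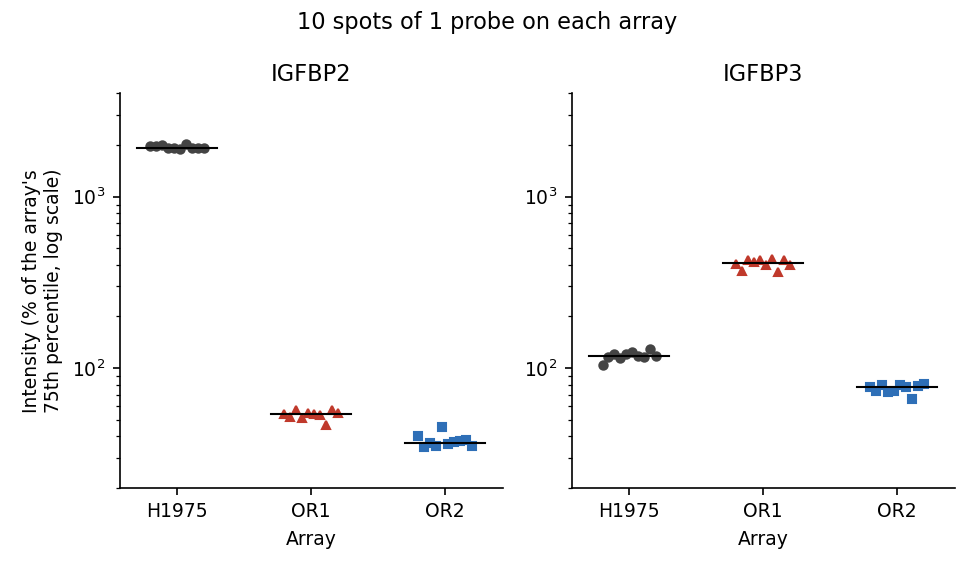
Levels of the 10 spots of the IGFBP2 probe (left) and the IGFBP3 probe (right) on each array, as a percent of the array's 75th percentile on a log scale, with a line at the median. The H1975 spots of IGFBP2 stand far above those of OR1 and OR2, and the OR1 spots of IGFBP3 stand above those of H1975 and OR2, with an SD between spots of at most 0.11 on the log2 scale.

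IGFBP4, a binding protein that mostly inhibits IGF action and is cut by the protease PAPPA, was the member past the upper ratio in both lines. Its probe is close to background in H1975, and its first 30 bases are shown because the result rests on it alone.
IGFBP4, NM_001552, chromosome 17 from 38613308 to 38613367: gaaaaatctcattcccagagtcagaggaga
The intensity was 29.2 for H1975, 63.5 for OR1 and 96.6 for OR2, all 3 well above background. The ratio was 2.48 for OR1 and 3.22 for OR2, with a log2 technical SD of 0.27 for either. OR2 over OR1 was 1.30, within 2 technical SDs. The call was lost with normexp, at 1.51 for OR1 and 1.67 for OR2, and in OR1 also with spike-in scaling, at 1.63.

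IGFBP6, which prefers IGF2 over IGF1, was well above background in every line. Its probe (NM_002178, chromosome 12 from 53494853 to 53494912) had an intensity of 3796 for H1975, 2416 for OR1 and 3508 for OR2. The ratio was 0.726 for OR1, beyond 2 technical SDs, and 0.899 for OR2, within them. With spike-in scaling IGFBP6 passed the lower ratio in OR1, at 0.478.

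IGFBP7, a secreted protein related to the binding proteins with low affinity for IGFs, was up-regulated in OR1 on 2 probes. A further probe was called above background in no line, and the first 30 bases of all 3 are given for comparison.
IGFBP7 probe 1, NM_001553, chromosome 4 from 57897423 to 57897482: acctccagaatattattagtctgcatggtt
IGFBP7 probe 2, NM_001253835, chromosome 4 from 57906990 to 57907049: caggtgtacttgagctgtgaggtcatcgga
IGFBP7 probe 3, an Ensembl transcript, chromosome 4 from 57896947 to 57897006: taccccagaaaaagacaaagatctggtact
Probe 1 had an intensity of 397 for H1975, 1253 for OR1 and 520 for OR2. Probe 2 had 315, 1160 and 430, and probe 3 had 2.92, 2.71 and 2.98. On probes 1 and 2 OR1 stood apart from the other lines.
In OR1 the ratio was 3.60 on probe 1 and 4.20 on probe 2. In OR2 it was 1.28, within 2 technical SDs, and 1.33, just beyond them. OR2 over OR1 was 0.354 and 0.317. With spike-in scaling the OR1 ratios were 2.37 and 2.76.

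**Figure D3:**
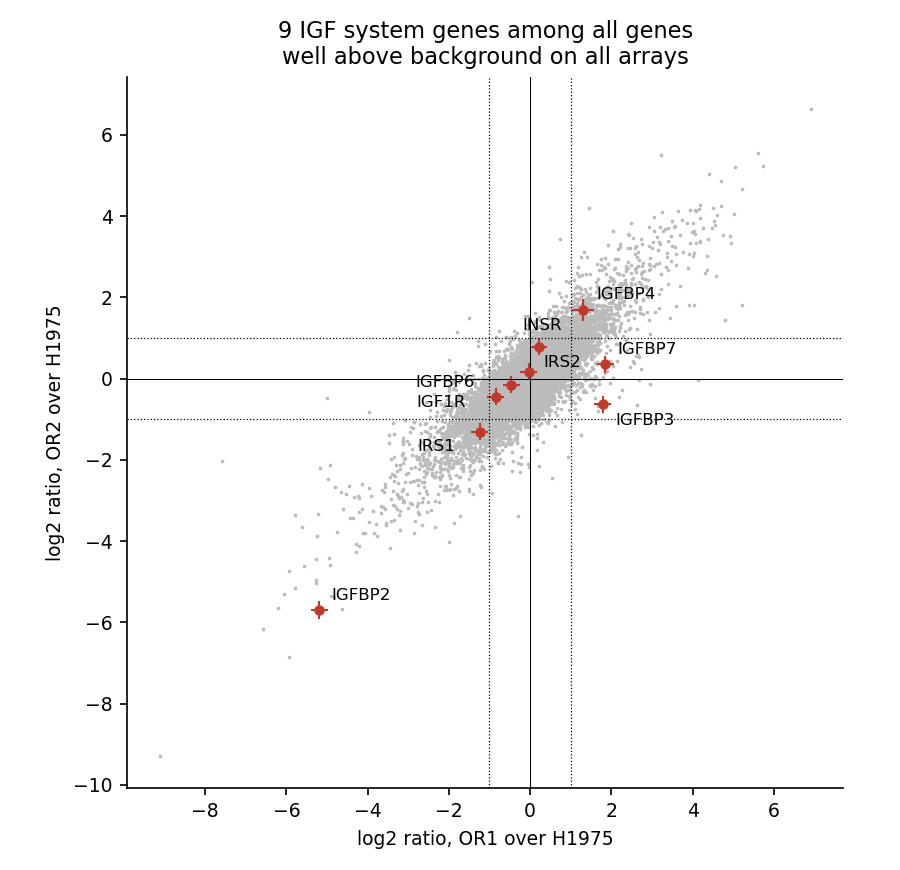
Log2 ratio to H1975 for OR1 (x axis) and OR2 (y axis) of the 9 IGF system genes measured on all 3 arrays (red, with bars of 1 technical SD) over all 18589 such genes (grey), with dotted lines at the ratios of 2 and 0.5. IGFBP2 lies at -5.19 and -5.70, near the lower left edge of all genes, and IGFBP3 and IGFBP7 lie to the right of zero in OR1 with OR2 values of -0.64 and 0.35.

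Markers of cell identity also differed between the lines. Of 12 epithelial and lung adenocarcinoma markers, 11 were well above background on each array and SFTPB on none, 5 were lower and 1 (SFTPC) was higher in both lines by these ratios, and their median ratio was 0.252 for OR1 and 0.594 for OR2. Their summed level was 293268% of the 75th percentile in H1975, 115109% for OR1 and 125606% for OR2. The markers past the lower ratio in both lines were EPCAM (0.0370 and 0.0725), CDH1 (0.0205 and 0.0800), KRT7 (0.164 and 0.170), CLDN4 (0.172 and 0.405) and KRT19 (0.463 and 0.492), while the cytokeratins KRT8 and KRT18 were past neither ratio. Of 9 fibroblast markers, the number well above background was 3 for H1975, 3 for OR1 and 1 for OR2, with a summed level of 442%, 502% and 70.0%, and COL3A1, DCN, PDGFRA, THY1 and POSTN were not well above background on any array. Of 7 endothelial markers, KDR, TEK, CLDN5 and CD93 were not well above background on any array, and the list summed to 64.9%, 78.6% and 71.3%. Of 5 blood cell markers on the arrays, CD3E and HBB were not well above background on any array, and the list summed to 370%, 887% and 1350%, mostly CD14. The part of these markers in the IGF gene results was not tested. In such bulk RNA, fewer cells that express a gene cannot be told apart from less RNA per cell.

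Other genes of the IGF system were read from lists by role. Of 10 further genes, 4 were called above background on some array, and 2 of these were up-regulated in both lines and none down-regulated. IGFBP5, the binding protein stored in bone matrix, was up-regulated. Its intensity was 8.25 for H1975, not well above background, 52.9 for OR1 and 81.3 for OR2, a ratio of at least 4.80 for OR1 and at least 6.30 for OR2. With normexp these bounds were at least 1.75 and at least 1.95, which end the call.

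H19, a long noncoding RNA that is imprinted opposite to its neighbour IGF2, was also up-regulated. Its intensity was 42.5 for H1975, 395 for OR1 and 278 for OR2, a ratio of 10.6 for OR1 and 6.37 for OR2, and a second probe gave 11.8 and 7.48. With normexp the brighter H19 probe gave 5.05 and 3.20. The probes of IGF1, INS and IGFBP1, which encode the other ligands and a liver binding protein, were not well above background on any array.

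Proteases and other relatives of the binding proteins gave a mixed picture. Of 13 IGFBP proteases and their inhibitors, 9 were so called and 1 was down-regulated in both lines. This was PLAU, urokinase, with an intensity of 45562 for H1975, 9338 for OR1 and 16219 for OR2. Its ratio was 0.234 for OR1 and 0.346 for OR2, and on a second probe 0.192 and 0.356. Of 12 other genes with an IGFBP domain, 7 were so called, with a median ratio of 2.43 for OR1 and 1.91 for OR2. CTGF, a matricellular protein, was the gene of this list that was up-regulated in both lines. Its intensity was 86.5, 279 and 214, a ratio of 3.68 for OR1 and 2.41 for OR2, and with normexp 1.79 for OR2, which ends that call. Of 3 genes for IGF2 mRNA-binding proteins, 2 were well above background, and none was called in both lines.

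Downstream of the receptors, most genes were not called in both lines. The same holds over all genes, where 5.09% were up-regulated and 6.32% down-regulated in both. Of 20 receptor adaptors and restraints, 1 was down-regulated in both lines and none up-regulated, with a median ratio of 1.04 for OR1 and 1.18 for OR2. GRB14, an inhibitor that binds the activated insulin receptor, was that gene, with an intensity of 253 for H1975, 31.2 for OR1 and 23.0 for OR2, a ratio of 0.141 and 0.0887, or 0.349 and 0.281 with normexp. Of 27 PI3K-AKT-mTOR genes reported here, 1 was higher and 1 was lower in both lines by these ratios, and their median ratio was 1.02 for OR1 and 1.05 for OR2.

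The higher gene was PIK3R2, a regulatory subunit of PI3K, which had a ratio of 2.32 for OR1 and 2.02 for OR2. The call was lost in OR1 with spike-in scaling, at 1.52, and in OR2 with median scaling, at just under 2. The lower gene was RHEB, the GTPase that activates mTOR, with a ratio of 0.362 for OR1 and 0.481 for OR2, and the latter was 0.507 with the scaling percentile taken over measured probes alone, 0.506 with spike-in scaling and 0.504 with normexp, each just short of the call. Of 18 FOXO factors and FOXO target genes, which AKT restrains through FOXO phosphorylation, 2 were up-regulated in both lines and none down-regulated. They were the factor FOXO4, at 2.48 and 2.68, and the transcriptional coregulator CITED2, at 2.52 and 3.08. A second CITED2 probe gave 1.97 and 2.13, under the ratio in OR1, and the second FOXO4 probe was called above background in no line. The median ratio of 17 measured genes of that list was 1.12 for OR1 and 1.59 for OR2. With spike-in scaling FOXO4 was at 1.63 and CITED2 at 1.66 for OR1, and with normexp FOXO4 was at 1.71 for OR1 and 1.79 for OR2.

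**Figure D4:**
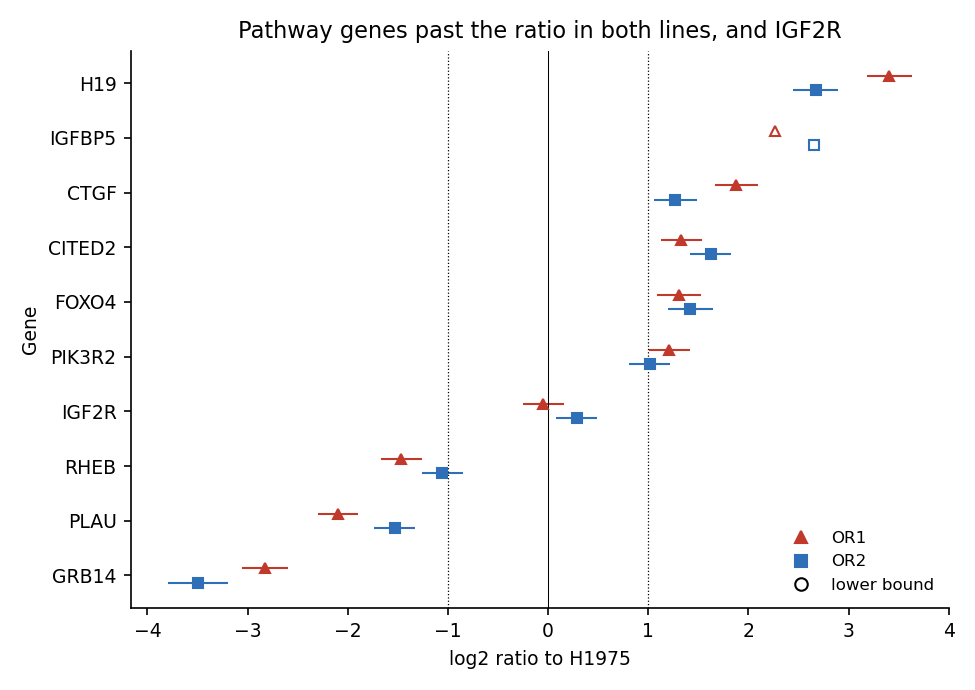
Log2 ratio to H1975 for OR1 (triangles) and OR2 (squares) of the pathway genes reported here that pass the ratio in both lines and of IGF2R, with bars of 1 technical SD, dotted lines at the ratios of 2 and 0.5, and open symbols for lower bounds. H19 and IGFBP5 lie highest, and RHEB, PLAU and GRB14 lie below the lower line in both.

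The genes next to the members on hg19 were compared by probe position within 250 kb. Around IGFBP2, 9 of 18 genes were above background on some array, and 4 of them were up-regulated in both lines while IGFBP2 was down-regulated. The nearest of these was IGFBP5, with its probe 8.02 kb away. The others were the noncoding genes LOC101928156 (2.26 and 2.57), lnc-SMARCAL1-2 (2.59 and 2.68) and LOC100507554 (2.60 and 2.31), the first 2 of which have probes at nearly the same place. These noncoding genes were dim in H1975, at intensities of 39.5, 25.9 and 31.5. Around IGFBP4 the direction was the reverse, with 11 of 16 genes measured, none of them higher and 4 lower in both lines by these ratios.

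The median ratio of the 10 genes around IGFBP4 measured on all arrays was 0.475 for OR1 and 0.546 for OR2. TNS4, a tensin at focal adhesions, lay 18.7 kb from the IGFBP4 probe and had an intensity of 1397 for H1975, 63.2 for OR1 and 85.2 for OR2, a ratio of 0.0516 and 0.0594. LOC101059954 (0.302 and 0.297), lnc-CCR7-1 (0.254 and 0.30) and the replication factor CDC6 (0.445 and 0.372) were the others. IGFBP4 was thus higher in both lines, and 4 of its neighbours were lower.

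Near IGF2, the called genes were H19, 134 kb away, and TH, the enzyme of catecholamine synthesis, 34.7 kb away, at 0.311 for OR1 and 0.371 for OR2. Near IGFBP6, the tensin TNS2 was up-regulated (2.45 and 2.84). ITGB7, an integrin subunit (0.115 and 0.126), RARG, a retinoic acid receptor (0.253 and 0.313), and ESPL1, the protease separase (0.464 and 0.346), were down-regulated there. No gene within 250 kb of IGF1R, INSR, IRS1, IRS2, IGFBP3 or IGFBP7 was called in both lines. Around IRS1 the single other gene was called above background in no line.

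Start-site sequence was compared for the members lower or higher in both lines, as 250 bases upstream of a RefSeq start on GRCh38.p14, shown 5′ to 3′ on the gene's strand with the GC box letters GGGCGG or CCGCCC in capitals. For IGFBP2, which has 3 start sites in the table, the window with the most CpG dinucleotides is shown, chosen after the sequences were seen.
IRS1, chr2:226799821-226800070, minus strand: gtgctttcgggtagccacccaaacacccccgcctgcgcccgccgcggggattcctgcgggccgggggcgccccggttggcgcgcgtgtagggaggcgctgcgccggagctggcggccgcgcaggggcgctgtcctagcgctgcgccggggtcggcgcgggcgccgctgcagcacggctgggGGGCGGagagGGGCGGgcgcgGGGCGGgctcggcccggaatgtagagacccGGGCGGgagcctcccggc
IGFBP2 start site 2, chr2:216633170-216633419, plus strand: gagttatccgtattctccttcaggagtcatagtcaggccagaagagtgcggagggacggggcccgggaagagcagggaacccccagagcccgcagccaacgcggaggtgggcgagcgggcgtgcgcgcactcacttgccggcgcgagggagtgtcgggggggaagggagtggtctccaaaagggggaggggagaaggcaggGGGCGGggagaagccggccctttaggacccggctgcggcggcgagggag
IGFBP4, chr17:40443200-40443449, plus strand: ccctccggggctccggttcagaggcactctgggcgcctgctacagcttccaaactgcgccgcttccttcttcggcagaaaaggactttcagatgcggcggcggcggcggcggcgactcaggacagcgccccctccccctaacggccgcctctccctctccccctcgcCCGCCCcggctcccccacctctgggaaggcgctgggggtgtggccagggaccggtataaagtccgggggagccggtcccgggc
The windows held 39 CpG dinucleotides for IRS1, 22 for IGFBP2 and 24 for IGFBP4, where the median of 35116 RefSeq windows of this length was 11. Of members not called in both lines, IGF1R held 48, IRS2 42, IGFBP3 32, INSR 28 and IGFBP6 9. The other IGFBP2 windows, at start sites 1 and 3, held 7 and 4 CpG dinucleotides, and the first of them held the E-box letters and 1 GC box.
The GC box was found 4 times for IRS1, 1 time for IGFBP2 and 1 time for IGFBP4, on either strand, and 42.6% of all windows held it. Members not called in both lines held it from 1 time (IGFBP6) to 5 times (IRS2). The letters TATAAA (on either strand, in 10.72% of windows) were found for IGFBP4. Neither the E-box letters CACCTG (17.5% of windows) nor the forkhead letters GTAAACA (2.98%), also searched on both strands, were in these 3 windows. Of the 10 members, 8 had a window in the table, all but IGF2 and IGFBP7. A match of letters is a description and not a site.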

How the data were processed

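The authors labelled complementary RNA of each line with Cy3 and hybridized it to 1 Agilent single-colour array. The deposited scanner files hold background-subtracted intensities, not scaled between arrays, with an error estimate and background flags. The file headers name Feature Extraction 10.7.1.1, and the submitters' processing notes name 9.5.1.1. A second deposited table of normalized intensities, made by an unnamed method, served as an alternative. The members and gene lists were chosen with earlier results of these data known.

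Controls and outlier spots were removed. Repeated spots were averaged as log2 intensities, from which the array's 75th percentile was subtracted. The deposited intensities were thus compared as log2 differences. The brightest probe by mean over the arrays stood for a gene in counts, and members are given by every probe. Named beside the members are genes of the lists past the ratio of 2 or 0.5 in both lines, neighbours within 250 kb past it, and H19, IGF1, INS, IGF2R, IGFBP1 and IGFBP5, and 1 gene that would be named under this rule is not reported here and is left out of its list. Between 45.6% and 45.9% of probes on an array were called well above background, and 0 spots were saturated. Precision is limited by the number of arrays, with no test possible. All 13 member probes with a RefSeq accession matched the same symbol. Probe positions follow the files (hg19), and their exon and UTR placing was not analysed here. Promoter sequences are RefSeq's on GRCh38.p14. The calling code was run on simulated data with planted changes far larger than a ratio of 2. That run cannot show how calls near this ratio behave. Python 3.11.15, numpy 2.4.6, pandas 2.3.3, R 4.3.3 and limma 3.58.1 (normexp, offset 50) were used.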

Additional observations from a re-analysis of the deposited data

Results flagged for a closer look

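IGFBP3 had a ratio to H1975 above 1 in OR1, at 3.45, and below 1 in OR2, at 0.643. IRS2 had a ratio below 1 in OR1, at 0.975, and above 1 in OR2, at 1.13. Each was singled out because its ratios lie on opposite sides of 1 in the 2 resistant lines, and with 1 array per line the difference was not tested. For IRS2 both ratios lie within 2 technical SDs of 1 under percentile scaling, while for IGFBP3 both lie beyond. With spike-in scaling the IRS2 ratio in OR1 was 0.642, beyond 2 technical SDs.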

How the results depend on the processing

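Of 360 member ratios under alternatives, 310 stayed within 1 technical SD of the reported value and 50 did not. Of these 50, 24 came with scaling on 7 spike-in probes, 16 with normexp and 10 without scaling. Spike-in scaling and no scaling add the same constant to every log2 ratio of a comparison, so they move all probes alike. Normexp was run with an offset of 50 added to every intensity, which by construction brings the ratios of dim probes toward 1. Spike-in scaling shifted all log2 ratios by -0.60 in OR1 and 0.07 in OR2, no scaling by -0.19 and 0.04, and median scaling by -0.11 and -0.02. The count of members up-regulated in both lines was 1, while spike-in scaling, normexp and a ratio of 4 each gave 0. The count down-regulated in both was 2, and 1 with normexp and 1 at a ratio of 4 (IGFBP2). In OR1, the up-regulated count of 3 was 0 at a ratio of 4. In OR1, the down-regulated count of 3 was 5 with spike-in scaling, 1 with normexp and 1 at a ratio of 4. In OR2, the up-regulated count of 1 was 0 with normexp, 0 at a ratio of 4 and 2 at a ratio of 1.5. In OR2, the down-regulated count of 2 was 1 at a ratio of 4 and 4 at a ratio of 1.5. Stricter and looser ratios change counts by construction. Quantile normalization, the authors' normalized table, kept outlier spots, the median over probes and any probe passing left every count within 1.5 times of its value. No paired analysis was possible because each line has 1 array, and for the same reason no replicate could be left out. With a single slide, no slide block could be fitted, and leaving out saturated spots removed 0 spots. Dim signal limits IGF2, IGFBP4, IGFBP5 and the called noncoding neighbours of IGFBP2 in H1975 or OR1.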
